A study of Oryza sativa with 8 samples.

Results

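The 3 catalase genes of rice (Oryza sativa), CATA (Os02g0115700), CATB (Os06g0727200) and CATC (Os03g0131200), were taken by their identifiers from deposited tables that list 5827 genes in all. Leaf blades and leaf sheaths of hydroponically grown plants were compared between a control group and a group exposed to 100 mM NaCl for 24 h, with 2 RNA sequencing libraries in each of the 4 groups. The series text concerns the landrace SZK, set against the varieties FL478 and Kunishi in physiology, but the sample labels name no variety, and no plant age or pooling is stated. Separate plants are not stated for the paired libraries of any group, so the authors' p-values can measure at most a spread between libraries that may be technical. The authors' test is not stated, so which spread it used is unknown. The tables hold genes already selected as changed and 1 value per group, so no value per library and no SD can be given. All 3 catalases were among the 4623 blade genes, and CATC alone was among the 1998 sheath genes; CATA and CATB in sheaths were not analysed here.

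Catalases are haem enzymes of the peroxisome that split hydrogen peroxide into water and oxygen without needing a reductant. In leaves much of their substrate comes from photorespiration, in which glycolate oxidase makes hydrogen peroxide in the same organelle, while ascorbate peroxidases remove it in the cytosol and chloroplast at the cost of ascorbate. In rice, CATC is known as a major leaf catalase, and its loss in the mutant nitric oxide excess1 leads to hydrogen peroxide build-up and leaf cell death. The isozyme names follow the identifiers as given at the outset: a reference name table of another assembly held CATA on chromosome 2 and CATB on chromosome 6, as their identifiers state, while the name CATC could not be checked there.

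In leaf blades, salt changed the make-up of the catalase transcripts: CATA fell 4.31-fold, while CATB rose 1.34-fold and CATC 1.31-fold (fold changes, q-values and adjusted p-values here and below are those of the authors' deposited tables unless another source is named). CATC was the most abundant of the isozymes in both groups, so the summed catalase level went up although CATA fell. Of the 3 genes, 2 were higher and 1 was lower, against 51.7% higher and 48.3% lower of all listed blade genes, a background too coarse to read 3 genes against. Each level below is the authors' mean over 2 libraries in TPM, a transcript level scaled for transcript length and library size. RNA came from whole tissue, so fewer cells of a type and less RNA per cell cannot be told apart.

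CATA stood at a mean of 375 TPM in control blades and 98.4 TPM in salt blades, which rest on means of 11788 and 2978 reads. The salt mean was thus the lower, and the authors' deposited table gave a log2 fold change of -2.11 with q = 6.3e-147. The log2 interval that counting error alone allows, an exact 95% binomial interval of the read ratio moved by the median offset between deposited fold changes and read ratios, ran from -2.15 to -2.07. Counting therefore limits the size of the fall very little, while the spread between plants is not covered by this interval.

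CATC stood at a mean of 2578 TPM in control blades and 3879 TPM in salt blades, from means of 79400 and 113152 reads. The authors' deposited table gave a log2 fold change of 0.39, or 1.31-fold, with q = 2.5e-06, and the counting interval ran from 0.37 to 0.39. By mean TPM alone CATC was 1.50-fold higher in salt. This gap between both estimates was shared by the table as a whole, in which the deposited log2 fold change lay a median of 0.19 below the log2 TPM ratio.

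CATB was the least abundant isozyme in both groups, at a mean of 39.5 TPM in control blades and 60.3 TPM in salt blades, from means of 1272.5 and 1859 reads. The authors' deposited table gave a log2 fold change of 0.42, or 1.34-fold, with q = 1.2e-04. Its counting interval ran from 0.35 to 0.49. The deposited log2 fold changes of CATB and CATC differed by 0.03, whereas that of CATA less that of CATC was -2.49. No test of a difference between isozymes over libraries could be made from group means.

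**Figure D1:**
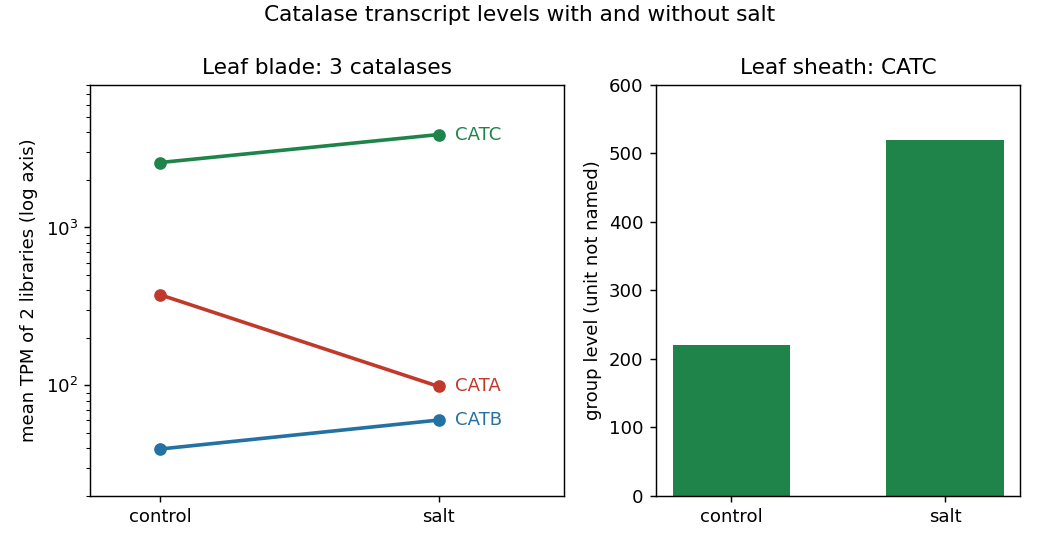
Left, mean TPM of CATA, CATB and CATC in control and salt leaf blades (log axis; each point is the authors' mean of 2 libraries, with no error available). Right, the group level of CATC in leaf sheaths, in a unit that the deposited table does not name; CATC lies above both other isozymes in blades, CATA drops from 375 to 98.4 TPM, and CATC in sheaths goes from 221 to 519.

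In control and in salt blades CATC was the highest, CATA lay below it and CATB was the lowest, but the distances changed. CATC exceeded CATA 6.87-fold in control and 39.4-fold in salt. CATA exceeded CATB 9.50-fold in control and 1.63-fold in salt, so both minor isozymes came close to each other. CATC exceeded CATB 65.3-fold in control and 64.4-fold in salt, a ratio that barely moved. Counted in reads, CATB made up 1.58% of CATB and CATC together in control (Clopper-Pearson 95% interval 1.52% to 1.64%) and 1.62% in salt (1.57% to 1.67%). These intervals overlap, but they cover counting error only and not the spread between libraries.

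The summed mean TPM of the isozymes was 2993 in control and 4038 in salt blades, which is 1.35-fold higher or 0.43 on the log2 scale. Lowered by the median offset of 0.19, the rise would be 0.24 on the log2 scale. CATC gained 1301 TPM and CATB 20.8 TPM, while CATA changed by -277 TPM. The share of CATC in the summed catalase TPM was 86.1% in control and 96.1% in salt. The share of CATA was 12.5% in control and 2.44% in salt, and that of CATB was 1.32% and 1.49%.

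**Figure D2:**
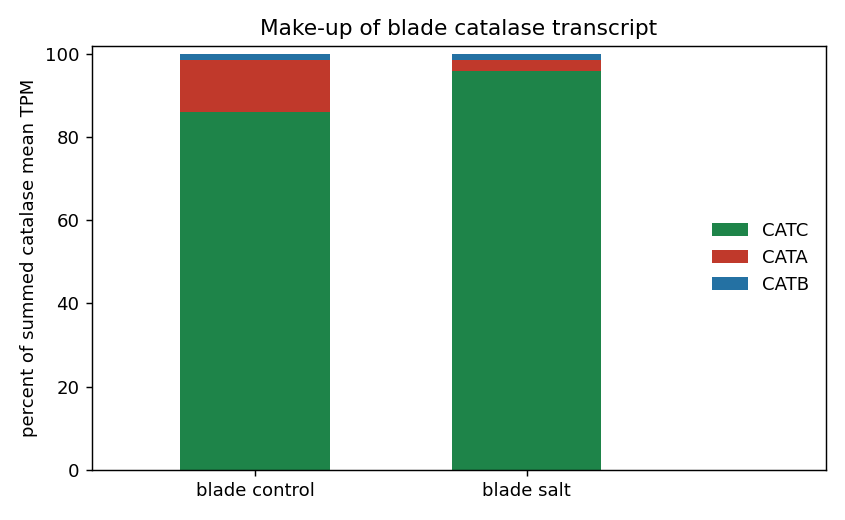
Stacked bars of the share of each isozyme in the summed catalase mean TPM of leaf blades, in percent, for control and salt (means of 2 libraries). The CATA share shrinks from 12.5% to 2.44% and the CATC share grows from 86.1% to 96.1%, while CATB stays a thin band.

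The shares by read count were close to those by TPM, since reads per FPKM, which scales with transcript length, lay between 27.0 for CATC and 28.3 for CATB in control blades. By reads, CATA made up 12.7% of catalase reads in control (Clopper-Pearson 95% interval 12.6% to 12.9%) and 2.52% in salt (2.46% to 2.59%). How reads shared with similar copies were assigned is not stated. These intervals cover counting error only.

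CATA had one of the largest falls among listed blade transcripts of its abundance. Of the 4623 listed blade genes, 120 (2.6%) were lower by at least 2 on the log2 scale, CATA among them. These 120 genes had a median control level of 3.175 TPM, against 15.8 TPM for all listed blade genes, and only 1 of them, Os04g0678700, had a higher control level than CATA. From the other side, 173 listed genes had a control level at least that of CATA, 137 of them were lower with salt, and their median deposited log2 fold change was -0.39. Os04g0678700 was again the only one of them with a lower fold change than CATA. By q, CATA ranked 3 among the 2231 lower genes.

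CATC was among the most abundant listed blade transcripts, and it rose while most listed genes above it in control fell. It ranked 39 by mean TPM in control and 28 in salt. Both listed genes nearest to CATC by blade levels, described below, also rose, at deposited log2 fold changes of 0.39 and 0.23. Of the 38 listed genes above CATC in control, 1 was higher with salt. That gene, Os01g0200700, went from 28378 to 39150 TPM, and it was also the only listed gene with a larger gain in mean TPM than CATC; it was singled out after its values were seen. In fold terms CATC and CATB moved little, since 2030 and 1933 of the 2392 higher genes had a larger deposited log2 fold change, and the median of the higher genes was 0.76.

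**Figure D3:**
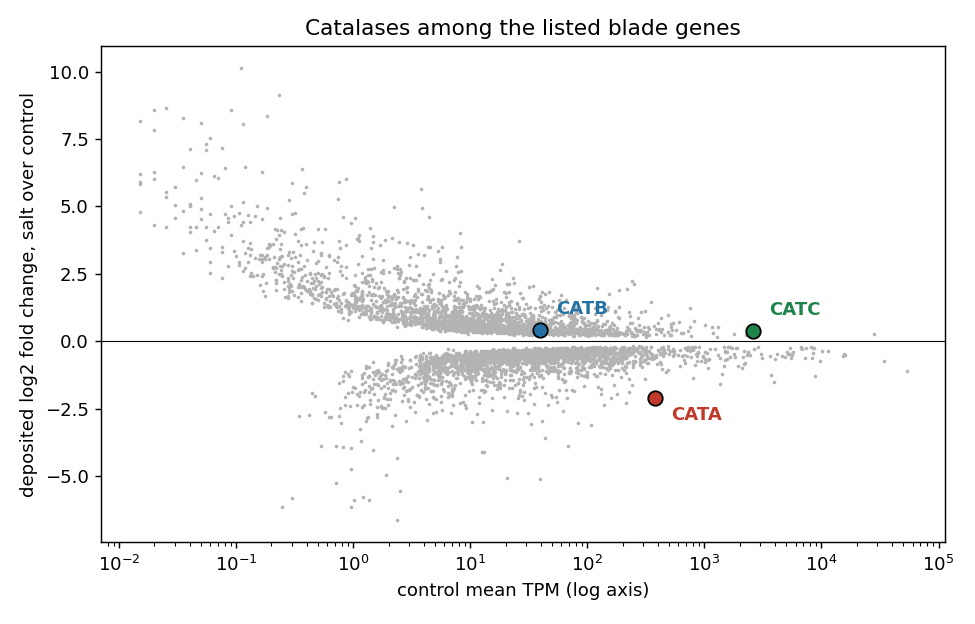
Deposited log2 fold change (salt over control) against control mean TPM on a log axis for the listed blade genes (grey points; genes with a control mean of 0 TPM cannot be placed on this axis), with the catalases in colour. CATA at -2.11 sits below nearly all genes of similar abundance, and CATC at 0.39 lies at the abundant end, where most points are below 0.

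In leaf sheaths, CATC rose by more than in blades by the deposited estimates. Its group level was 221 in control and 519 in salt sheaths, in a unit that the table does not name, so sheath levels are not set against blade levels. The authors' deposited table gave a log2 fold change of 1.23, or 2.35-fold, with adjusted p = 2.5e-08, against 20.8% of listed sheath genes that were higher by at least 1. The tested estimate, the product of the deposited statistic and its standard error, was 1.25 on the log2 scale (standard error 0.196), which gives a normal 95% interval of 0.86 to 1.63. The deposited blade log2 fold change of CATC, 0.39, lies below this interval, but the blade table gives no standard error, so the difference between the tissues was not tested. Of the 911 higher sheath genes, 282 had a larger deposited log2 fold change than CATC, and their median was 0.95. With CATA and CATB outside the sheath list, whose highest adjusted p was 0.004, a share of catalase transcripts in sheaths cannot be given.

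CATC was 1 of 794 genes found in both tables, of which 468 were higher in both tissues and 279 moved in opposite directions. Of the 468, 219 had a larger deposited log2 fold change in sheaths than in blades, as CATC did. These estimates are not alike, since blade values lay a median of 0.19 below log2 TPM ratios. The limits of selection also differed, with a highest q of 0.0499 in blades and a highest adjusted p of 0.004 in sheaths. The gene nearest to CATC by its pair of deposited log2 fold changes, over 2 values, was Os01g0919400, at 0.36 in blades and 1.22 in sheaths and a Euclidean distance of 0.0232. The next nearest lay at a distance of 0.104.

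By blade levels, the nearest gene to CATC over its control and salt values of log2(mean TPM + 1) was Os01g0149800, at 2527 TPM in control and 3775 TPM in salt and a distance of 0.0489. The next nearest lay at 0.407, with 2260 TPM in control and 3022 TPM in salt. For CATA the nearest was Os04g0678700, at 400 TPM in control and 105 TPM in salt, with a distance of 0.13. The next, Os01g0357100, lay at 0.517, with 311 TPM in control and 134 TPM in salt. The files pair none of these identifiers with a gene name.

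The catalases were set beside 48 genes of hydrogen peroxide metabolism in 5 lists, which cover ascorbate peroxidases, superoxide dismutases, photorespiration, NADPH oxidases, and recycling of ascorbate and glutathione. In blades 24 of the 48 were listed, 13 higher and 11 lower, and in sheaths 16 were listed, 15 higher and 1 lower. The listed share that was higher was 51.7% over all blade genes and 45.6% over all sheath genes. Together with the catalases, 27 members were listed in blades, of which CATA had the lowest deposited log2 fold change and CATC the highest mean TPM in both groups. The next lowest was GDCSH at -0.90, and the next highest levels were 1940 TPM for GDCSH in control and 2145 TPM for APX2 in salt. In sheaths, CATC had the highest deposited log2 fold change of the 17 listed members, ahead of a list member without a checked name at 1.16.

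The photorespiration list, of the pathway whose glycolate oxidase step makes peroxisomal hydrogen peroxide, pointed in different directions in the tissues. Of its 14 genes, 9 were listed in blades, 2 higher and 7 lower, with a median log2 fold change of -0.35 against 0.27 for all listed blade genes. In sheaths also 9 were listed, all 9 higher, with a median of 0.825 against -0.65 for all listed sheath genes. Only 4 of the genes were in both tables, 3 of them lower in blades and higher in sheaths and 1 higher in both. Of all 794 genes listed in both tissues, 279 moved in opposite directions, either way. By mean TPM the blade log2 ratios of these 3 were -0.05, -0.16 and -0.06, each a fall smaller than the median offset of 0.19. CATC, in contrast, was higher in both tissues. GLO1, a glycolate oxidase, had means of 1884 and 1818 TPM in control and salt blades, a deposited log2 fold change of -0.24. In sheaths GLO1 went from a level of 366 to 650, with a deposited log2 fold change of 0.83 and the same tested estimate of 0.83 (standard error 0.187). GDCSH, a subunit of the glycine decarboxylase that releases carbon dioxide and ammonia in mitochondria, fell from 1940 to 1177 TPM in blades, a deposited log2 fold change of -0.90. GLO3, another glycolate oxidase, rose from 2.15 to 4.72 TPM in blades, a deposited log2 fold change of 0.94 that rests on means of 50 and 105 reads.

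Of the 8 ascorbate peroxidases, 4 were listed in blades, 2 higher and 2 lower, and 2 in sheaths, both higher. APX2, a cytosolic enzyme, rose from 1295 to 2145 TPM in blades, with a deposited log2 fold change of 0.53, and by a tested estimate of 0.48 (standard error 0.128) in sheaths. APX8, a thylakoid enzyme, went from 869 to 673 TPM in blades, with a deposited log2 fold change of -0.56, and rose in sheaths from a level of 161 to 311, a tested estimate of 0.97 (standard error 0.178). Thus CATC and APX2 were higher in both tissues, while APX8 was lower in blades and higher in sheaths. Whether a fold change differed between the tissues was not tested for these genes.

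Superoxide dismutases, which make hydrogen peroxide from superoxide, had 3 of 7 members listed in blades and 2 in sheaths, each of them higher. SODCC2, a cytosolic copper and zinc enzyme, rose from 116 to 269 TPM in blades, a deposited log2 fold change of 1.02, and by a tested estimate of 0.59 (standard error 0.138) in sheaths. SODA, the manganese enzyme of mitochondria, rose from 92.3 to 142 TPM in blades, a deposited log2 fold change of 0.44. Of the 9 NADPH oxidases, which make superoxide at the plasma membrane, 1 was higher and 1 lower in blades and none was listed in sheaths. RBOHB fell from 52.0 to 33.4 TPM in blades, a deposited log2 fold change of -0.82. The higher NADPH oxidase, without a checked name, had a deposited log2 fold change of 1.13. Of the 10 recycling genes, 5 were higher and 1 lower in blades, and 2 were higher and 1 lower in sheaths. GRC2, a glutathione reductase, rose from 52.5 to 71.0 TPM in blades, a deposited log2 fold change of 0.30. It was the only listed blade member with a checked name. Members without a checked name reached 1.36 in blades, and 1 of them was at 0.50 in blades and -1.02 in sheaths. MDAR2, a monodehydroascorbate reductase, rose in sheaths from a level of 48.1 to 74.9, a tested estimate of 0.67 (standard error 0.168).

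**Figure D4:**
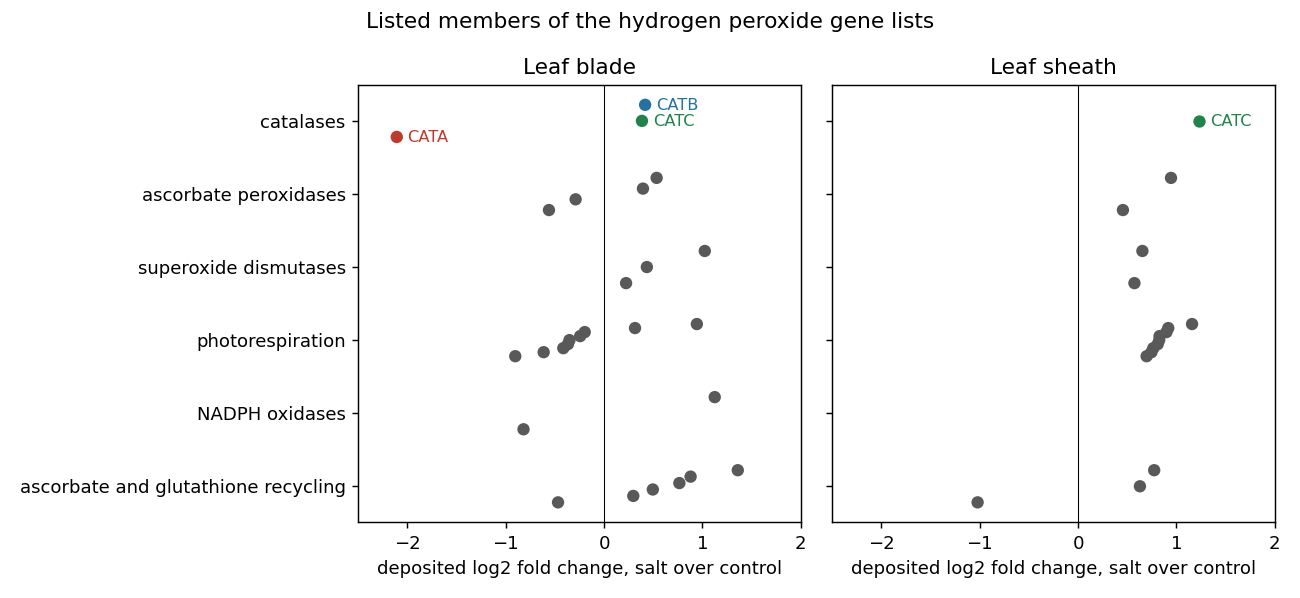
Deposited log2 fold changes (salt over control) of the listed members of 6 gene lists in leaf blades (left) and leaf sheaths (right); each point is 1 gene, and members outside a table have no point. CATA at -2.11 is the lowest blade point, CATC at 1.23 is the highest sheath point, and the photorespiration genes lie mostly below 0 in blades and above 0 in sheaths.

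Blade and sheath labels could not be checked against each other, since the marker genes have no value in sheaths. RBCS, a Rubisco small subunit, was listed in blades at 53569 TPM in control and 28778 TPM in salt, and RCA, Rubisco activase, at 8160 and 8022 TPM, so blade libraries held abundant transcripts of photosynthetic tissue. Their deposited log2 fold changes were -1.09 for RBCS and -0.21 for RCA, against -2.11 for CATA. OSH1, a shoot meristem gene, was in neither table, and no marker of the list was in the sheath table. The 4623 listed genes together held a mean of 10745825 reads in control blades and 9995664 in salt blades. They made up 65.4% of TPM in control and 60.9% in salt, so these sums are not the depth of whole libraries. The sheath table gives no read counts, so depth there is unknown.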

How the data were processed

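RNA was sequenced from 8 rice leaf samples, grouped by their titles and characteristics. HISAT and the build mm10 are named per the submitters' processing notes; mm10 is a mouse build and cannot belong to rice identifiers, and the true build, counting tool, annotation and test were not given in the sources used. Per the file headers, the blade table holds the authors' log2 fold change, q-value and, per group, a mean TPM, a mean FPKM and a mean read count. The authors' read counts are estimated counts, since 5.58% of the deposited genes have means that whole numbers cannot give. Per the file headers, the sheath table holds the authors' log2 fold change, group levels (a signal of unnamed unit), standard error and test statistic (each treated as a score) and p-values. Case1 in a header was read as salt, the only other blade group. The sheath fold change of CATC equals the log2 ratio of its levels with 1 added to each.

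No new test was made: the deposited q-values (highest 0.0499 in blades) and adjusted p-values are reported. Computed here were shares, ratios, ranks, distances and exact Clopper-Pearson 95% counting intervals. No per-sample columns were present, so no library could be left out.

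The members and lists were chosen with earlier results of these data known. Always named were the catalases, and of each list and tissue the members with a checked name and an absolute log2 fold change of at least 1, or otherwise those with the largest change, up to 2. GLO1 in blades and the marker genes were given in addition. Of 51 pairs of name and identifier, 24 names stood on the stated chromosome in the reference name table, 27 were not in it, and 20 were used as checked after 24 of 26 pairs on a chromosome ran in the same order; names of some list members had been corrected from that table after it was seen. Of the listed identifiers, 0 were in that table. No sequences were used here. The software was SciPy 1.17.1, numpy 2.4.6, pandas 2.3.3 and matplotlib 3.10.9 under Python 3.11.15.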

Additional observations from a re-analysis of the deposited data

How the results depend on the processing

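CATA stayed lower and CATB and CATC higher in blades under each other fold estimate. In the order CATA, CATB, CATC, the log2 ratio was -1.93, 0.61 and 0.59 of mean TPM, -1.98, 0.56 and 0.54 of mean FPKM, -1.98, 0.55 and 0.51 of mean read counts, and -1.92, 0.60 and 0.59 of mean TPM with 1 added. The cause of these shifts was not tested. In sheaths CATC was at 1.25 as statistic times standard error and at 1.23 as a plain ratio. By read counts the control and salt shares were 12.7% and 2.52% for CATA, 1.38% and 1.58% for CATB, and 85.9% and 95.9% for CATC. With an absolute log2 fold change of at least 1 required, 0 catalases were higher in blades, and of the 48 list genes 3 were higher and 0 lower in blades, and 1 was higher and 1 lower in sheaths, where 15 and 1 had been listed. Of all listed sheath genes, 20.8% were higher by at least 1, and the other shares past this limit are not given here. With q up to 0.001, 10 list genes were higher and 7 lower in blades. The shares of all listed genes at that q are not given here. Of 80 counts of single lists under other settings, 64 stayed within 1.5 times, and the other 16 came from these stricter limits. All 20 counts stayed when direction was taken from the ratio of group values, and all 20 with a level of at least 1. The log2 limit of 1 moved 12 of 20 counts, and the limit of 0.001 moved 4 of 20. Since a count of 0 cannot move under a stricter limit, the 64 are no measure of robustness. For the main results, 58 values under other settings were compared, of which 35 were labelled as the same and 23 as moved. Those that moved included every other blade fold estimate of the catalases given above. No paired analysis was possible because the tables hold group means only, which also prevents leaving out a library. Depth limits GLO3 most among the named genes, and is unknown in sheaths.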
